A study of Mus musculus with 8 samples.

Results

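Granzymes, perforin and the serpins that inhibit granzymes were followed through single cells of mouse organ allografts and recipient blood. The 6 genes were Gzma, Gzmb, Gzmk, Prf1, Serpinb9 and Serpinb6b, chosen by name, among 24405 genes listed over the 8 expression tables. All 6 were listed in every table. The level of each was read in 4 cell classes defined by other genes, over 47542 cells with at least 500 unique molecular identifiers (UMIs, tags that mark single captured transcripts) out of 80000 barcodes. CD8 T cells had at least 2 UMIs of Cd8a and Cd8b1 together. CD4 T cells had at least 1 UMI of Cd4 and at least 1 of Cd3d, Cd3e and Cd3g together. Natural killer (NK) cells had at least 1 UMI of Ncr1 or Klrb1c and none of Cd3d, Cd3e and Cd3g. Cells with at least 1 UMI of Csf1r, a receptor of the monocyte and macrophage lineage, served as the background class.

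Per the study's methods, hearts, livers or kidneys of BALB/c mice were placed in C57BL/6J recipients with no immunosuppressive drug, and cells were taken 7 days later. The labels give strain BALB/c, male sex and an age of 8 weeks for every library, blood included, so donor and recipient cells cannot be told apart by label. The 8 Microwell-seq libraries were blood (PBMC) and graft lymphocytes isolated by density gradient (TIL) for heart, liver and kidney, and whole graft suspension (PC) for liver and kidney. Each condition had 1 library. The methods give 2 recipients per organ and do not state which of them went into each library, so libraries of 1 organ may come from the same recipients. Conditions were therefore described with counting error only, and tests used the libraries as repeats.

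Cytotoxic lymphocytes kill by releasing granules. Perforin, encoded by Prf1, opens pores in the membrane of the target cell, and granzymes enter through them and cleave proteins inside. Granzyme B (Gzmb) is the member that activates caspases, granzyme A (Gzma) is a tryptase that acts without caspases, and granzyme K (Gzmk) is a related tryptase known from memory-like T cells. Serpinb9 binds and inactivates granzyme B inside the cell that makes it, and Serpinb6b belongs to the same intracellular branch of serpins. These genes are best known from CD8 T cells and NK cells, the cells that attack a foreign graft.

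Members lie in 4 places of the mouse genome (GRCm38, GENCODE annotation). Gzma spans chr13:113093825-113100981 and Gzmk spans chr13:113171608-113225908, both on the minus strand and 70.6 kb apart. Serpinb6b spans chr13:32965209-32979067 and Serpinb9 spans chr13:33003250-33017957, both on the plus strand and 24.2 kb apart. Gzmb spans chr14:56258838-56262260 on the minus strand, and Prf1 spans chr10:61297833-61304680 on the plus strand. The Gzmk span overlaps Esm1, a gene on the opposite strand, and whether counting used the strand is not given in the sources used here. Reads that aligned to several places had been removed, so a stretch shared by related serpins or granzymes would not be counted.

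The promoter windows below were printed for Gzma, Prf1 and Serpinb9, which were higher in NK cells than in CD8 T cells, and for Gzmb, which was not. Each runs 5′ to 3′ on the gene's own strand from 250 bases before to 50 bases after the RefSeq start (GRCm38.p6). Capitals mark matches on either strand to the Runx motif TGTGGT, the core TGACGT of the cAMP response element, the AP-1 motif TGANTCA and the T-box core GTGTGA.
Gzma, chr13:113100932-113101231, minus strand: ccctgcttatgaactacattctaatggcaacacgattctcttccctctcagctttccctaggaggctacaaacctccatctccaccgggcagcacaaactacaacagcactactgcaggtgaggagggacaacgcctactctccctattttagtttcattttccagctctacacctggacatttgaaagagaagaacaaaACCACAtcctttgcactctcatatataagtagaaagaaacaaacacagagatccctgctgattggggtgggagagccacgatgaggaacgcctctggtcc
Gzmb, chr14:56262285-56262584, minus strand: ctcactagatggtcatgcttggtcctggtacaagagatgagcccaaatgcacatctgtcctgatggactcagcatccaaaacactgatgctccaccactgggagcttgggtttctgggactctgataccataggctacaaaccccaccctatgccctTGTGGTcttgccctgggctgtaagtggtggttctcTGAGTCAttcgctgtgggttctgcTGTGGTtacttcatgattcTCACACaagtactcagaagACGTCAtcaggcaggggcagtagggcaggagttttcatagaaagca
Prf1, chr10:61297586-61297885, plus strand: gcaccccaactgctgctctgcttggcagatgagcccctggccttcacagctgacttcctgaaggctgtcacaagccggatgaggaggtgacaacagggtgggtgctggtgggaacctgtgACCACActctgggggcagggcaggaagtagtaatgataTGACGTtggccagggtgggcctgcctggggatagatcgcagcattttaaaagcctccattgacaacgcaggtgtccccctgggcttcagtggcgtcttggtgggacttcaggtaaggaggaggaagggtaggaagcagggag
Serpinb9, chr13:33004291-33004590, plus strand: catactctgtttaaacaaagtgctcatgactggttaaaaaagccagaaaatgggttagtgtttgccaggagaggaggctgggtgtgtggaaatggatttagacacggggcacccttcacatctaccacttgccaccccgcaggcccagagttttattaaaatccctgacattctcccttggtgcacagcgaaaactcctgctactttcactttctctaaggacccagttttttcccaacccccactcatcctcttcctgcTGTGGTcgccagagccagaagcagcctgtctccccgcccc
The Runx letters stood in 4 of the 6 member windows (Gzma, Gzmb, Prf1 and Serpinb9) and in 16.8% of 32851 promoter windows of the mouse genome. The cAMP response element core stood in Gzmb and Prf1 and in 7.51% of all windows. The T-box core stood in Gzmb and Gzmk and in 14.5% of all windows, and the AP-1 motif stood in Gzmb alone of the 6 and in 7.81% of all windows. Serpinb6b held none of them. The Gzmb window alone held all 4 motifs. No overlap between marked motifs occurred in these windows, and a match is a description of letters, not of binding. The Serpinb9 and Gzmk windows lie inside the longer GENCODE spans of these genes.

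Libraries differed in depth and purity. Per library, 795 to 10000 barcodes passed 500 UMIs, from totals of 3418722 to 19171264 UMIs, and the median cell that passed held 581 to 1501.5 UMIs. CD8 T cells numbered 183 to 4803 per library, NK cells 0 to 265, CD4 T cells 1 to 343 and Csf1r+ cells 49 to 3165. The library labelled heart TIL held 5 hepatocyte genes at 364 UMIs per 1000000 UMIs (CPM), against 1.99 CPM in the library labelled liver TIL, where Alb was at 0. The library labelled liver TIL held 6 cardiomyocyte genes at 159.65 CPM, against 23.2 CPM in the library labelled heart TIL. Organ markers thus went against both labels, and these libraries are named by label throughout. Pairs of libraries shared 1 to 600 barcodes among cells with at least 500 UMIs, with the highest number between these 2 TIL libraries. Sharing was not particular to them. Every pair among the PBMC and TIL libraries labelled heart and liver shared 344 to 600, and any other pair at most 169. The source of the sharing was not tested. NK cells of 6 libraries with at least 20 such cells carried Ncr1 at 565 to 1013 CPM and Cd3d at 0. Both genes are part of the class rule, so these 2 values do not measure its purity. The same NK cells also carried Trbc2 at 258 to 1201 CPM, which CD8 T cells carried at 1957 to 2670 CPM.

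CD8 T cells carried more Gzma and Gzmb in blood and in the graft libraries labelled heart and liver than in kidney grafts. Levels are given as CPM of all UMIs of the class in a library, with exact Poisson 95% intervals that cover counting error only, and counts of 3′ tags are not scaled to transcript length. In CD8 T cells of the heart, liver and kidney PBMC, Gzma stood at 3200 CPM (3028 to 3380), 3021 CPM (2788 to 3268) and 2695 CPM (2529 to 2869). In the TIL libraries labelled heart and liver it stood at 4069 CPM (3996 to 4144) and 1106 CPM (1059 to 1154). It stood at 2984 CPM (2951 to 3018) in whole liver grafts (PC), 420 CPM (321 to 541) in kidney PC and 383 CPM (335 to 435) in kidney TIL. The interval of liver PBMC overlapped those of heart PBMC, liver PC and kidney PBMC, and the intervals of the 2 kidney graft libraries overlapped each other. No other pair of libraries overlapped at these levels, which include cells that also met another class rule. In the same 3 PBMC libraries, Gzmb stood at 3406 CPM (3228 to 3591), 2185 CPM (1988 to 2397) and 1502 CPM (1379 to 1633). In the TIL libraries labelled heart and liver it stood at 5221 CPM (5138 to 5306) and 3464 CPM (3382 to 3549). It stood at 5049 CPM (5006 to 5093) in whole liver grafts, 573 CPM (514 to 636) in kidney TIL and 308 CPM (224 to 414) in kidney PC. Kidney grafts were thus lowest for both genes. The order of the other libraries was not the same for the 2 genes. The library labelled liver TIL was the sixth for Gzma and the third for Gzmb, where its interval overlapped that of heart PBMC. Of CD8 T cells in liver PC, 22.6% also met the Csf1r rule. With cells of 2 classes left out, Gzma stood at 3413 CPM in heart PBMC, 3317 in liver PC and 3066 in liver PBMC. Gzmb then stood at 5739 CPM in liver PC and 5418 in the library labelled heart TIL. Liver PC thus moved above liver PBMC for Gzma and above the library labelled heart TIL for Gzmb.

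The other members were measured at lower counts in CD8 T cells. Gzmk ranged from 49.1 CPM in kidney TIL to 206 CPM in the library labelled heart TIL, with a median of 155 CPM over 8 libraries. Prf1 ranged from 57.5 CPM in kidney PBMC to 282 CPM in liver PC, with a median of 126 CPM. The lowest value of each of these genes came from a kidney library, and liver PC led for Prf1 and for both serpins. Serpinb9 ranged from 35.6 CPM in kidney PBMC to 184 CPM in liver PC, and Serpinb6b ranged from 75.2 CPM in kidney TIL to 304 CPM in liver PC. The highest level exceeded the lowest by 4.04-fold for Serpinb6b, 4.21-fold for Gzmk, 4.91-fold for Prf1 and 5.18-fold for Serpinb9, against 10.6-fold for Gzma and 16.9-fold for Gzmb. Kidney PC and kidney TIL also had the shallowest CD8 T cells, with medians of 609.5 and 715 UMIs against 877 to 1698 elsewhere, and their part in the low levels was not tested.

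Shares of positive cells were compared at 1 fixed depth. After each cell was thinned to 500 UMIs, 74.4% of CD8 T cells in the library labelled heart TIL had a Gzma UMI and 79.3% had a Gzmb UMI, against 13.2% and 19.6% in kidney TIL. The same shares in Csf1r+ cells, the class that should lack granzymes, were 58.0% and 52.4% in the library labelled heart TIL and 11.01% and 8.26% in kidney TIL. Of Csf1r+ cells, 1.55% (liver PBMC) to 34.2% (liver PC) also met the CD8 T rule, 19.9% in the library labelled heart TIL and 32.1% in kidney TIL. With cells of 2 classes left out, the Gzma and Gzmb shares in Csf1r+ cells were 54.1% and 46.8% in the library labelled heart TIL and 5.41% and 6.76% in kidney TIL. Median depths before thinning were 609.5 to 1698 UMIs for CD8 T cells and 590.5 to 1818 for Csf1r+ cells. In kidney PC, Gzma was seen in 15.6% of CD8 T cells and 11.9% of Csf1r+ cells, and Gzmk in 2.75% and 2.38%, so shares there were close to the background. Prf1 was seen in 2.73% to 11.4% of CD8 T cells and in 0.775% to 4.27% of Csf1r+ cells. Without thinning, 88.3% of CD8 T cells in the library labelled heart TIL had a Gzma UMI, and 76.2% of Csf1r+ cells did.

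All 6 members were higher in CD8 T cells than in Csf1r+ cells. The test fitted UMI sums per library and class over 3784 genes with edgeR's quasi-likelihood method, the library as a block, and cells that met 2 class rules left out. Of all genes tested, 27.5% were higher in CD8 T cells and 27% lower at an adjusted p under 0.05, 54.4% in all. The difference for Gzmb was 2.47 ± 0.26 on the log2 scale (SE, n = 8 libraries, edgeR adjusted p = 2.35e-09). The log2 difference was 1.98 ± 0.21 for Serpinb6b, 1.91 ± 0.20 for Gzmk, 1.78 ± 0.25 for Prf1, 1.43 ± 0.19 for Gzma and 1.14 ± 0.21 for Serpinb9. Each gene had the higher level in CD8 T cells in 8 of 8 libraries, although few UMIs in Csf1r+ cells stood behind the kidney ones. Csf1r+ cells held at most 9 UMIs of any member in kidney PC and in kidney TIL. In kidney PBMC they held at most 2 of Gzmk, Prf1 and either serpin. In kidney PC, for example, Prf1 stood at 77.5 against 76.3 CPM, on 10 and 3 UMIs. Serpinb9 stood there at 54.2 against 50.9 CPM, on 7 and 2 UMIs, and Gzmb at 318 against 229 CPM, on 41 and 9 UMIs. These levels could not be told apart by counting. The median of the 6 was 1.85, against 0.06 over all genes tested.

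NK cells carried more Gzma, Prf1 and Serpinb9 than CD8 T cells. Gzma in NK cells stood at 17463 CPM in kidney PBMC, 9364 in the library labelled heart TIL, 7653 in liver PC, 5945 in liver PBMC, 3797 in the library labelled liver TIL and 4528 in heart PBMC. These 6 values lay above those of CD8 T cells in the same libraries. The log2 difference of NK minus CD8 T was 1.57 ± 0.20 for Gzma (edgeR adjusted p = 1.85e-06), 1.43 ± 0.28 for Prf1 (adjusted p = 0.00102) and 1.13 ± 0.28 for Serpinb9 (adjusted p = 0.00989), where 6% of the 3784 genes were higher in NK cells, of 8.62% called in either direction. Gzma and Prf1 were higher in NK cells in 6 of 6 libraries and Serpinb9 in 5 of 6. Kidney PBMC led in all 3 genes, with Prf1 at 753 CPM against 173 to 385 CPM in NK cells elsewhere. Without that library Gzma and Prf1 still passed, at 1.28 and 0.91, and Serpinb9 did not, at 0.70 with an adjusted p of 0.13. Under stricter class rules Gzma alone of these 3 passed, in a fit that called 18 of 5066 genes, while Prf1 stood at 1.19 ± 0.93 and Serpinb9 at 1.88 ± 0.87. Over 16 alternatives the adjusted p reached 0.000137 for Gzma, 0.765 for Prf1 and 0.712 for Serpinb9, and the log2 difference was at least 1.28, 0.91 and 0.70. Without both TIL libraries labelled heart and liver, Gzma, at 1.56, and Serpinb9, at 1.29, still passed, as did Prf1.

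Gzmb took the opposite order. In NK cells it stood at 2733 CPM in the library labelled heart TIL, 2704 in liver PC, 1852 in kidney PBMC, 1700 in the library labelled liver TIL, 822 in liver PBMC and 802 in heart PBMC. CD8 T cells of the same library held more in 5 of 6 cases, kidney PBMC being the exception. The log2 difference of NK minus CD8 T was -0.85 ± 0.26 (edgeR adjusted p = 0.0361), where 2.62% of genes were lower in NK cells. The call was lost in 11 of 16 alternatives, with log2 values from -1.16 to -0.30 and adjusted p up to 0.863. Among them was the leaving out of heart PBMC (-0.67), liver PC (-0.82), liver PBMC (-0.73) or the library labelled heart TIL (-0.77) or liver TIL (-0.85), each alone. Of the 5 that kept the call, the mitochondrial filter dropped 1 cell, and leaving out kidney PC or kidney TIL took away no NK sum. Gzmk, at 28.2 to 283 CPM in NK cells on 6 to 12 UMIs per library, had a log2 difference of -0.88 ± 0.32 and missed the threshold (adjusted p = 0.0884). It passed without the library labelled liver TIL, at -1.27 with an adjusted p of 0.0199, without both TIL libraries labelled heart and liver, at -1.26 with 0.031, and with no filter on low counts, at -1.16 with 0.00378. The adjusted p ranged from 0.00378 to 0.405 over 16 alternatives. Serpinb6b, at 85.0 to 367 CPM in NK cells, had a log2 difference of 0.64 ± 0.24 and missed it too (adjusted p = 0.101).

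Against the background class, 5 of the 6 members were higher in NK cells, where 6.79% of genes tested were, and 9.51% were lower. The log2 difference of NK minus Csf1r+ cells was 3.21 ± 0.32 for Prf1, 3.0 ± 0.21 for Gzma, 2.62 ± 0.28 for Serpinb6b, 2.26 ± 0.31 for Serpinb9 and 1.61 ± 0.28 for Gzmb, with edgeR adjusted p from 2.97e-12 to 0.000144. These genes were higher in 6 of 6 libraries. Gzmk had a log2 difference of 1.04 ± 0.37 with an adjusted p of 0.0555 and a higher level in 4 of 6. It passed with DESeq2 (1.21, adjusted p = 0.0309) and without heart PBMC (1.29), the library labelled heart TIL (1.30) or liver PBMC (1.09), each left out alone. The calls of the other 5 held under all 16 alternatives.

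**Figure D1:**
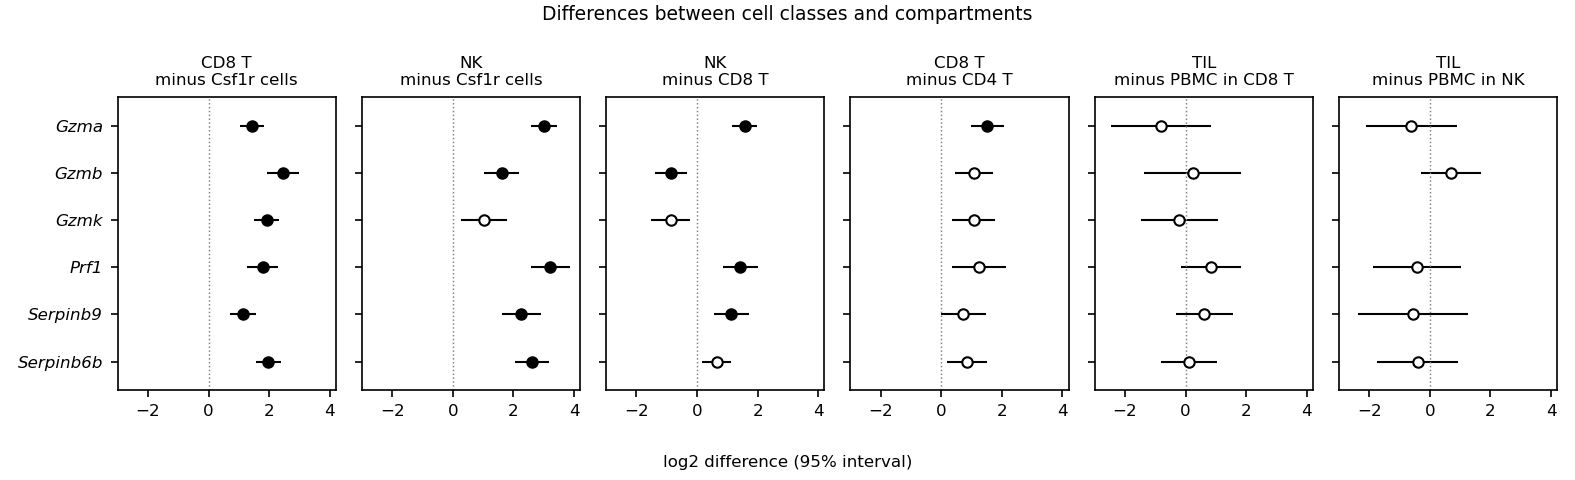
Log2 difference of each gene (x axis, with 95% intervals) between cell classes and between TIL and PBMC libraries in the edgeR fits; filled points passed an adjusted p of 0.05. All 6 genes pass for CD8 T minus Csf1r+ cells, 4 for NK minus CD8 T with Gzmb on the negative side, 1 for CD8 T minus CD4 T, and none for TIL minus PBMC in CD8 T or NK cells.

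The balance of Gzma to Gzmb separated NK cells from CD8 T cells within each library. NK cells held 2.23 (1.64 to 3.08) Gzma UMIs per Gzmb UMI in the library labelled liver TIL, 2.83 (2.49 to 3.22) in liver PC and 3.43 (2.86 to 4.12) in the library labelled heart TIL. Blood NK cells held 5.65 (4.63 to 6.94) in the heart library, 7.23 (6.17 to 8.52) in the liver library and 9.43 (8.12 to 10.997) in kidney PBMC. CD8 T cells of these 6 libraries held 0.32, 0.59, 0.78, 0.94, 1.38 and 1.79 in the same order. The ratio was 4.4 to 7.0 times as high in NK cells as in CD8 T cells of the same library, although both moved over the libraries. Blood NK cells ranged from 5.65 to 9.43 and graft NK cells from 2.23 to 3.43, so the 2 sets of 3 libraries did not overlap. No graft library of kidney had enough NK cells. Trbc2, a T cell transcript, stood at 258 to 598 CPM in blood NK cells and at 567 to 1201 CPM in graft NK cells. The ratios include cells that also met another class rule. Of graft NK cells, 2.63% to 16.4% also met the CD8 T rule and 9.59% to 23.7% the Csf1r rule. In blood these shares were 0.377% to 3.21% and 1.69% to 10.2%. The part of T cell transcripts and of cells of 2 classes in these ratios was not tested. CD8 T cells ranged from 0.94 to 1.79 in blood and from 0.32 to 1.36 in 5 graft libraries, which did overlap: kidney PC, with 60 Gzma and 44 Gzmb UMIs, lay within the blood range. Without kidney PC the graft range of CD8 T cells ended at 0.78 in the library labelled heart TIL. No test of blood against graft was made on these ratios.

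**Figure D2:**
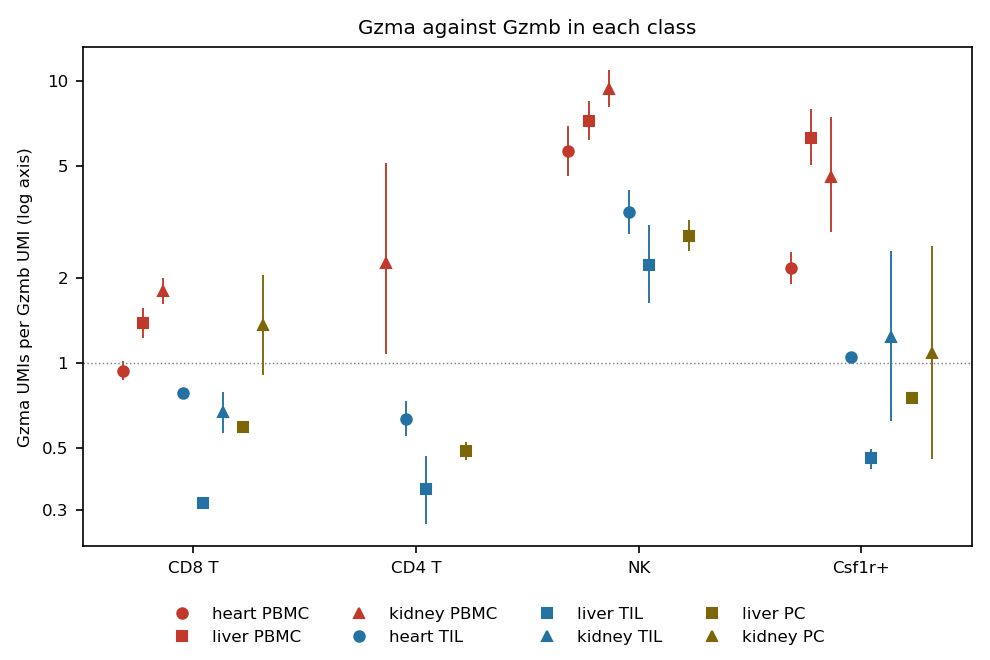
Gzma UMIs per Gzmb UMI (log axis) in 4 cell classes, with 1 point per library and 95% intervals from counting error; the dotted line marks equal counts. NK cells lie between 2.23 and 9.43, above CD8 T cells of the same library in 6 of 6 libraries, and Csf1r+ cells lie higher in blood (2.17 to 6.31) than in grafts (0.46 to 1.24).

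CD4 T cells were few, and only 4 libraries had at least 20. They were the TIL libraries labelled heart and liver, liver PC and kidney PBMC. Gzmb in CD4 T cells stood at 4498 CPM (4111 to 4912), 2036 CPM (1765 to 2337), 3283 CPM (3149 to 3421) and 368 CPM (184 to 659) in this order. Gzma stood at 2851, 726, 1593 and 837 CPM. Both genes were thus highest in the library labelled heart TIL, as in CD8 T cells. These levels include cells that also met another class rule, and without them Gzma stood at 403 CPM in the library labelled liver TIL and 995 CPM in liver PC. Against Csf1r+ cells, 2 of the 6 members were higher, Gzmb by 1.38 ± 0.31 and Serpinb6b by 1.13 ± 0.35 on the log2 scale (edgeR adjusted p = 0.000992 and 0.0158), where 9.94% of genes were and 14.1% were lower. Gzma had a log2 difference of -0.10 ± 0.26 with an interval from -0.63 to 0.43, and was higher in 2 of 4 libraries. Under stricter class rules it was higher in CD4 T cells, by 0.82 with an adjusted p of 0.00868, the lowest over 16 alternatives. Those rules changed both classes, and they left cells with any UMI of Cd3d, Cd3e or Cd3g out of the Csf1r+ class. Under those rules 5 members were higher, as were 469 of 5066 genes in all, and 664 genes were lower. Without liver PC, which held 181 of the CD4 T cells fitted, Serpinb6b dropped to 0.73 and lost its call (adjusted p = 0.578, the highest of its 16 alternatives), and it lost it with DESeq2 too, at 0.97 with an adjusted p of 0.092. Gzmb passed in all 16.

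One member passed the test between CD8 T and CD4 T cells. Gzma was higher in CD8 T cells by 1.52 ± 0.26 on the log2 scale, in 4 of 4 libraries (edgeR adjusted p = 0.000884), where 0.211% of genes were higher. The call was lost without liver PC, at 1.43 with an adjusted p of 0.0633, and where cells of 2 classes were counted in each, at 1.0 with an adjusted p of 0.0705, the highest over 16 alternatives. Gzmb had a log2 difference of 1.08 ± 0.31 and an adjusted p of 0.199. Prf1, Gzmk, Serpinb6b and Serpinb9 had log2 differences of 1.25, 1.07, 0.84 and 0.73 and missed the threshold, with adjusted p from 0.36 to 0.763. Gzmb, Gzmk, Prf1 and Serpinb6b were also higher in CD8 T cells in 4 of 4 libraries, and Serpinb9 in 3 of 4. The edgeR unadjusted p of these genes ran from 0.00168 (Gzmb) to 0.0539 (Serpinb9), in a fit that called 0.634% of all genes. Under the stricter class rules 4 members were higher, as were 20 of 5066 genes in all, and 0 passed where cells of 2 classes were counted in each, where 5 of 4182 genes were higher. Between 24.1% and 34.4% of CD4 T cells in the 3 graft libraries also met the CD8 T rule, and the fit left these cells out. T cells with Foxp3, the factor that defines regulatory T cells, numbered 79 in liver PC. After thinning, 48.1% of them had a Gzma UMI and 70.9% a Gzmb UMI, against 42.3% and 43.5% of Csf1r+ cells there, at median depths of 1677 and 1818 UMIs. In the library labelled heart TIL, 19 such cells gave 47.4% and 73.7%, against 58.0% and 52.4% of Csf1r+ cells, so the Gzma share was above the background class in 1 of these libraries and below it in the other. The other libraries held at most 10 such cells.

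A large part of each member's UMIs fell outside the 4 classes. Cells that met none of the 4 rules held 19.1% (liver PC) to 66.4% (heart PBMC) of Gzma UMIs, with a median of 55.6% over 8 libraries. Such cells numbered 2879 of 10000 in liver PC and 6517 of 7772 in heart PBMC. For the other members the median was 47.4% for Gzmb, 48.1% for Prf1, 49.2% for Gzmk, 51.2% for Serpinb6b and 54.8% for Serpinb9. CD8 T cells held 78.8% of Gzmb UMIs in liver PC, where they were 4803 of 10000 cells. They held 32.7% in liver PBMC, where they were 183 of 6822 cells. NK cells held 32.9% of Gzma and 41.3% of Prf1 UMIs in kidney PBMC, where they were 118 of 1143 cells.

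Csf1r+ cells carried both the members and general T cell transcripts. The level in Csf1r+ cells was expressed as a percent of that in CD8 T cells, with cells of 2 classes left out. It was taken for members with at least 20 UMIs in CD8 T cells and for 9 genes called T cell genes here. These were Cd3d, Cd3e, Cd3g, Trac, Trbc1, Trbc2, Lck, Nkg7 and Ccl5. Nkg7 and Ccl5 are not confined to T cells. Nkg7 had a log2 difference of 0.07 ± 0.22 between NK and CD8 T cells. Ccl5 had the highest percent of the set in every library, up to 164% in kidney PC. The minimum of 20 UMIs left 2 members in kidney PC (Gzma and Gzmb, on 8 and 9 UMIs in Csf1r+ cells). It left 4 in liver PBMC and in kidney PBMC and all 6 elsewhere, so medians of different libraries cover different members. In the blood libraries of heart, liver and kidney, the median over members was 18.0%, 7.94% and 41.8%, against 13.9%, 8.20% and 27.7% over T cell genes. In the TIL libraries so labelled, it was 37.0%, 28.2% and 33.0%, against 39.0%, 33.1% and 60.3%. In PC of liver and kidney it was 21.5% and 59.9%, against 22.6% and 93.8%. The 2 medians lay within 5 percentage points of each other in 5 of 8 libraries, all but the kidney ones. Member medians of the kidney libraries rest on few UMIs. Csf1r+ cells of kidney TIL held at most 9 UMIs of any member and 0 of Gzmk and Serpinb6b. Those of kidney PBMC held 75 of Gzma, 15 of Gzmb, 1 of Gzmk and 2 of Serpinb6b. Gzmb lay lower than Gzma in 7 of 8 libraries, for example at 3.30% against 15.9% in liver PBMC and 25.8% against 74.8% in kidney PBMC. Medians also hide Serpinb9, the highest member in liver PC (30.3%) and in the TIL libraries labelled heart (50.3%) and liver (58.6%). Csf1r+ cells there held 265, 77 and 81 of its UMIs. In heart PBMC Gzma, at 23.6%, lay above Serpinb9, at 21.3%. Cd3d in these Csf1r+ cells ranged from 89.2 CPM in liver PBMC to 1195 CPM in kidney PC, so these cells held T cell transcripts in every library. The part of free RNA, of doublets and of expression in Csf1r+ cells was not tested, and no doublets were removed.

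**Figure D3:**
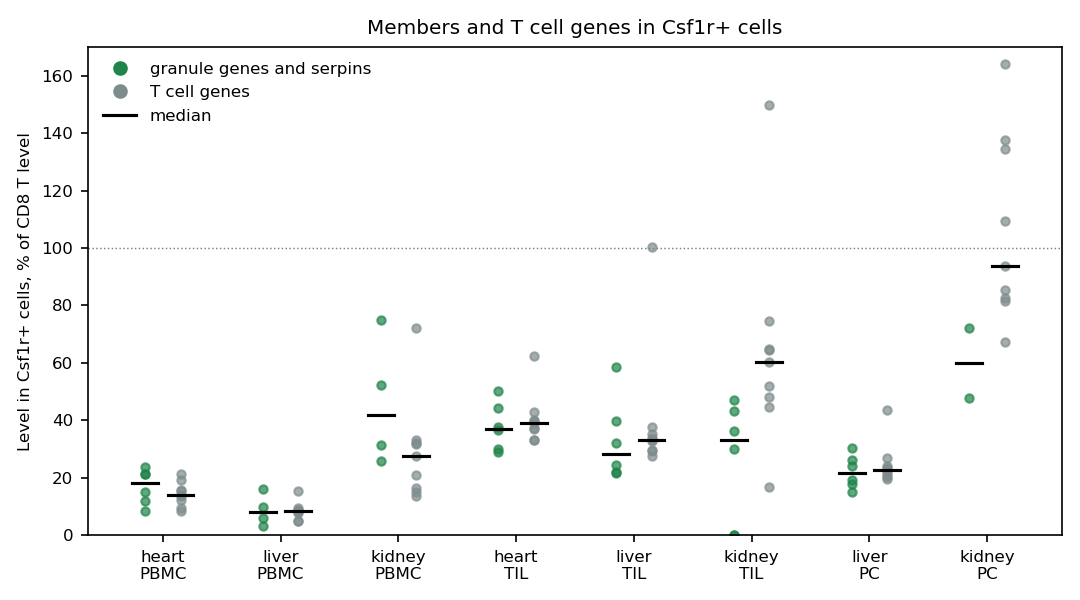
Level in Csf1r+ cells as a percent of the CD8 T level in each library. Granule genes and serpins are green, and 9 genes called T cell genes, Nkg7 and Ccl5 among them, are grey. Points are genes with at least 20 UMIs in CD8 T cells and bars are medians. The medians of both sets lie near 8% in liver PBMC, over 4 members and 8 T cell genes, and at 59.9% and 93.8% in kidney PC, over 2 members and 9 T cell genes.

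The Gzma to Gzmb ratio of Csf1r+ cells was set beside that of the lymphocytes of the same library. Csf1r+ cells held 6.31 Gzma UMIs per Gzmb UMI in liver PBMC, near the 7.23 of NK cells and above the 1.38 of CD8 T cells. In heart PBMC the ratio was 2.17 and in kidney PBMC 4.58, between CD8 T and NK cells of each. In liver PC it was 0.75 and in the TIL libraries labelled heart and liver 1.05 and 0.46, closer to the CD8 T ratios of 0.59, 0.78 and 0.32 than to those of NK cells. B cells and neutrophils of liver PBMC had ratios of 10.96 and 7.56. The Csf1r+ ratios include cells that also met another class rule. With those left out, Csf1r+ cells of liver PC held 3728 Gzma and 3696 Gzmb UMIs, and Gzmb there stood at 865 CPM against 1833 CPM with them.

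No member passed the test between TIL and PBMC libraries in CD8 T cells. The fit set 3 TIL against 3 PBMC libraries over 4891 genes, of which 2 passed (0.0409%). The log2 difference of TIL minus PBMC was 0.83 ± 0.43 for Prf1, 0.63 ± 0.41 for Serpinb9, 0.23 ± 0.70 for Gzmb, 0.10 ± 0.40 for Serpinb6b, -0.20 ± 0.55 for Gzmk and -0.82 ± 0.72 for Gzma, with edgeR adjusted p from 0.455 to 0.945. Intervals were wide: that of Gzma ran from -2.48 to 0.84 and that of Gzmb from -1.37 to 1.84, so these libraries could not show whether Gzma was lower by several fold or unchanged, or whether Gzmb was higher or lower. None of the 6 members had an unadjusted p under 0.05. Without both TIL libraries labelled heart and liver, kidney TIL alone stood against the PBMC libraries, which alone give the spread, and it is assumed to vary like them. The value of Gzmb was then -2.21 and that of Gzma -3.15, with adjusted p of 0.259 and 0.0905. DESeq2 called 131 genes and the fit with organ as a block 536, again with none of the 6. That block pairs libraries by their organ labels, against which the markers of 2 of the 3 TIL libraries went, and no other pairing was fitted.

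In NK cells, 2 TIL libraries stood against 3 PBMC libraries, and 5 of 1792 genes passed (0.279%), none of them among the 5 members tested. Gzmb had a log2 difference of 0.70 ± 0.42 and Gzma of -0.61 ± 0.64. Prf1, Serpinb6b and Serpinb9 had values of -0.41, -0.40 and -0.55. EdgeR adjusted p ran from 0.59 to 0.853, no unadjusted p was under 0.05, and DESeq2 called 24 genes with no member among them. The difference between NK and CD8 T cells in this contrast was fitted as an interaction over 3579 genes, of which 2 passed (0.0559%), no member among them. Prf1 and Serpinb9 had interaction values of -1.59 and -1.61 and Gzmk of 1.65, with unadjusted p of 0.00792, 0.0236 and 0.0215 and adjusted p from 0.681 to 0.746, and DESeq2 called 0 genes there.

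In CD4 T cells, 2 TIL libraries, those labelled heart and liver, could be set only against kidney PBMC. Gzmb stood at 4498 and 2036 CPM in them and at 368 CPM in kidney PBMC, and the kidney TIL library had too few CD4 T cells. The log2 difference was 2.63 ± 0.47 in a fit with 1 residual degree of freedom, in which the lone PBMC library is assumed to vary like the TIL libraries. This fit gave an edgeR adjusted p of 1.66e-06, with 10.1% of 1078 genes called and 6.68% higher in TIL, but the adjusted p was 0.152 with RLE size factors, 0.202 with DESeq2 and 0.159 with liver PC joined to TIL. The values therefore describe these 3 libraries, and no difference between blood and graft was read from them. Gzma, the only other member that could be fitted, had a log2 difference of 0.83 ± 0.44 and an adjusted p of 0.257.

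No member passed the test between cycling and other CD8 T cells. CD8 T cells were split by at least 1 UMI of Mki67 or Top2a, genes of dividing cells, in 6 libraries with at least 20 cells on each side. Of 3203 genes, 15.9% passed, 6.06% higher and 9.8% lower, and no member did. The log2 difference of cycling minus other cells was 0.31 ± 0.12 for Serpinb9 (edgeR adjusted p = 0.0734, unadjusted p = 0.0129), and from -0.10 to 0.14 for the other 5. The 95% interval ran from -0.24 to 0.04 for Gzma and from -0.12 to 0.15 for Gzmb. Without kidney TIL, Serpinb9 passed at 0.34 (adjusted p = 0.0245, the lowest over 13 alternatives that reach 0.706). DESeq2 called 189 genes and no member. Cycling cells were deeper, with a median of 2280 against 1477 UMIs in liver PC.

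Members were seen together in single CD8 T cells, mostly above the product of their separate shares. In cells thinned to 500 UMIs, the number of cells with both genes of a pair was divided by the number that the separate shares would give, for pairs where that number was at least 5. Of 61 such values in CD8 T cells, over the libraries, 57 lay above 1, with a median of 1.18 and a range from 0.84 to 1.93. Gzma and Gzmb were seen together in 123 of 329 CD8 T cells in heart PBMC, 1.23 times that number, and 1.04 times in the library labelled heart TIL. Prf1 and Serpinb9 reached 1.53 in liver PC, with 70 cells, and Gzmb and Prf1 1.84 in kidney TIL, with 13 cells. NK cells gave 25 of 28 values above 1, with a median of 1.19. Cells still differ in quality at a fixed number of UMIs, so values near 1 were not read as dependence. The cells counted include those that also met another class rule, 22.6% of CD8 T cells in liver PC by the Csf1r rule. No pairs of other genes were counted, so whether these values are particular to the members was not tested.

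Over the 26 sums of class and library, with cells of 2 classes counted in each, members followed different genes. Likeness was Pearson's r of log2(CPM + 10) over 10196 genes, and sums of 1 library share depth and free RNA. Gzma was most like Klrd1 (r = 0.90), an NK receptor subunit, the chemokine Ccl5 (r = 0.89) and Klre1 (r = 0.86), another NK receptor. Gzmb was most like Abracl (r = 0.89), Gimap7 (r = 0.88) and Myl12a (r = 0.87). Gzmk was most like Gzmb (r = 0.82), Ppil1 (r = 0.79) and Gimap7 (r = 0.76). Prf1 and Serpinb9 were each other's nearest gene, at r = 0.89, followed by Klrd1 (r = 0.84) and Cd7 (r = 0.81) for Prf1 and by F2r (r = 0.83) and Arhgap18 (r = 0.82) for Serpinb9. Serpinb6b was most like Ccl5 (r = 0.82), Gzma (r = 0.80) and Mum1 (r = 0.79). The lowest value between members was 0.35, between Gzma and Gzmk, which are neighbours on chromosome 13.

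The other granzymes had few UMIs. Over all cells with at least 500 UMIs, Gzmm had 344 UMIs, Gzmc 303, Gzmf 23, Gzmd 3, Gzme 2, Gzmn 1 and Gzmg 0, against 98811 for Gzma, 117792 for Gzmb and 4780 for Gzmk. None of the 7 was frequent enough to be tested between classes. Gzmm reached 92.3 CPM in CD8 T cells of liver PBMC and 46.5 CPM in kidney PBMC, against at most 7.39 CPM in CD8 T cells of graft libraries and 17.4 CPM in heart PBMC. Gzmc reached 25.1 CPM in CD8 T cells of the library labelled liver TIL and at most 6.02 CPM in CD8 T cells elsewhere, and 81.9 CPM in NK cells of liver PC, on 10 UMIs.

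Genes of granule loading and release moved both ways between CD8 T and Csf1r+ cells. Of 10 such genes tested, 4 were higher in CD8 T cells and 4 lower, with a median log2 difference of 0.03 against 0.06 over all genes, of which 27.5% were higher and 27% lower. The higher ones were Nkg7 (1.64), a granule membrane protein, Ctsw (1.58) and Cst7 (1.44), a cathepsin and a cathepsin inhibitor of cytotoxic cells, and Unc13d (0.88), which primes granules for release. The lower ones were Ctsc (-2.07), the protease that activates granzymes, the lysosomal protein Lamp1 (-1.69), Stxbp2 (-0.52) and Srgn (-0.49), the proteoglycan that packs granzymes, all of which macrophages also express. Between NK and CD8 T cells none of the 10 passed in the edgeR fit, where 8.62% of all genes did, while 4 had an unadjusted p under 0.05. In cycling CD8 T cells Ctsc and Srgn were lower, at -0.62 and -0.38, of 7 tested, where 9.8% of all genes were lower.

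Among 4 further serpins, Serpinb9b and Serpina3g were higher in NK than in CD8 T cells, by 3.02 ± 0.42 and 1.24 ± 0.18 on the log2 scale (edgeR adjusted p = 1.14e-05 and 2.35e-05), where 6% of all genes were. Serpinb9b, a close relative of Serpinb9, stood at 55.3 to 174 CPM in NK cells of 5 libraries and at 0 in NK cells of the library labelled liver TIL. In CD8 T cells it stood at 0 to 17.5 CPM. Its counts rest on stretches that differ from its relatives, since reads with several alignments had been removed. Serpina3g, an inhibitor of cathepsins, was lower in CD8 T cells than in Csf1r+ cells, at -1.11. In NK cells it did not pass against Csf1r+ cells, at 0.13 with an edgeR adjusted p of 0.997, while Serpinb9b was higher there by 4.16. Fasl, the death ligand that kills without granules, was higher in CD8 T cells (1.80) and NK cells (2.20) than in Csf1r+ cells, and Tnfsf10 was not tested. Of the 5 transcription factors only Tbx21, which drives cytotoxic genes, was tested between classes. Tbx21 was higher in CD8 T (1.95), NK (2.46) and CD4 T cells (1.82) than in Csf1r+ cells, and it did not pass between NK and CD8 T cells (0.51, adjusted p = 0.337) or between CD8 T and CD4 T cells (0.13).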

How the data were processed

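Microwell-seq UMI counts were analysed for 8 libraries, 1 per condition. Per the methods, the authors made the deposited counts with the Drop-seq core tools and STAR on GRCm38, dropped read pairs with poor barcode bases, removed reads that aligned to several places, tagged genes from a GENCODE annotation and merged UMIs that differed at 1 base within a gene. The deposited tables hold 10000 barcodes each, before the stated cell filter. Here cells with at least 500 UMIs were kept, 1 of which exceeded 10% mitochondrial UMIs. Doublets were not removed.

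UMIs were summed per library and class (at least 20 cells). The sums were tested with edgeR 4.0.16 (filterByExpr, TMM, quasi-likelihood F test, Benjamini-Hochberg over all genes tested, threshold 0.05) in R 4.3.3, with DESeq2 1.42.0 as an alternative. Class contrasts shared 1 fit of 26 sums from 8 libraries, with the library as a block. TIL and PBMC were compared without an organ term. The p-values measure the spread between libraries, which may share recipients. Intervals on CPM and UMI shares are exact Poisson and Clopper-Pearson at 95% and, like a floor of 3 counts, cover counting error only. Text values of CPM and shares count a cell in each class whose rule it meets. Cells were thinned to 500 UMIs with a fixed seed. Statistical code was tested on simulated data.

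Alternatives were RLE size factors, DESeq2, no filter on low counts, at least 1000 UMIs, at most 10% mitochondrial UMIs, stricter class rules, cells of 2 classes counted in each, organ as a block, PC joined with TIL, and each library or both TIL libraries labelled heart and liver left out. Stricter rules asked CD8 T cells for a Cd3 UMI and no Cd4, and CD4 T cells for 2 Cd3 UMIs and no Cd8a or Cd8b1. NK cells needed 2 UMIs of Ncr1 and Klrb1c and no Trbc1, Trbc2, Cd8a or Cd8b1. None of these 3 classes could hold a Csf1r UMI. Csf1r+ cells needed 2 UMIs of Csf1r and none of Cd3d, Cd3e, Cd3g, Ncr1 and Klrb1c, so the background class changed too. The text names the 6 members, 28 genes in 5 pathway lists, and the 3 genes most like each member. The members and lists were chosen with earlier results of these data known. Promoter sequences are from RefSeq (GRCm38.p6), with 6 of 6 members matched by symbol. Protein sequences were not used here.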

Additional observations from a re-analysis of the deposited data

Results flagged for a closer look

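Barcodes under 500 UMIs entered no comparison, yet they made up 92.05% of kidney PC, 88.57% of kidney PBMC and 79.95% of kidney TIL, and many of them met the CD8 T rule. Their levels of Gzma and Gzmb lay above the limit that a count of 0 allows, which was 9.03, 46.7 and 9.78 CPM in these libraries.

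In kidney PC, 983 such barcodes held Gzma at 512 CPM (438 to 595) and Gzmb at 346 CPM (286 to 416), against 420 and 308 CPM in the 218 CD8 T cells above 500 UMIs. In kidney TIL, 906 barcodes held Gzma at 720 CPM (629 to 822) and Gzmb at 404 CPM (336 to 482), against 383 and 573 CPM above the threshold. In kidney PBMC, 207 barcodes held Gzma at 4236 CPM (3747 to 4770) and Gzmb at 467 CPM (315 to 667), against 2695 and 1502 CPM above it. The shallow barcodes of kidney PBMC and kidney TIL thus held more Gzma and less Gzmb than the deeper ones, with intervals that did not overlap, while in kidney PC the intervals of both genes overlapped. What these barcodes hold was not tested.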

How the results depend on the processing

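The labels give no replicate numbers, so no fit used one. Class contrasts paired the classes of a library through the library block, and TIL minus PBMC was also fitted with organ as a block. Of 770 refitted log2 differences of members, 698 kept their direction and side of the threshold, 21 lost a call, 19 gained one and 32 changed sign. The 698 include all 55 values of the mitochondrial filter, which dropped 1 cell and so tested little. In CD8 T minus Csf1r+ cells all 6 calls held in all 16 alternatives. No filter on low counts gave 50 genes and 5 members for CD8 T minus CD4 T, 4381 genes for CD8 T minus Csf1r+, 488, 111 and 14 genes for TIL minus PBMC in CD8 T, NK and their interaction, and 1 member, Prf1, in the interaction. Stricter class rules gave 43 genes and 4 members for CD8 T minus CD4 T, 18 genes and 1 member for NK minus CD8 T and 102 genes for NK minus Csf1r+. For CD4 T minus Csf1r+ they gave 5 members, where 469 of 5066 genes were higher and 664 lower. Cells of 2 classes counted in each gave 0 members for CD8 T minus CD4 T. At least 1000 UMIs gave 171 genes for NK minus CD8 T, 4 for TIL minus PBMC in CD8 T and 327 for cycling. DESeq2 gave 1 member, Gzmb, for CD4 T minus Csf1r+, 131, 24, 8 and 0 genes for TIL minus PBMC in CD8 T, NK, CD4 T and the interaction, 0 members in CD4 T, and 189 genes for cycling. RLE size factors gave 17 genes and 0 members for TIL minus PBMC in CD4 T. Organ as a block, by label, gave 536 genes in CD8 T and 81 in NK. PC joined with TIL gave 55, 8, 4 and 1 genes in CD8 T, NK, CD4 T and the interaction, and 0 members in CD4 T. Without both TIL libraries labelled heart and liver, TIL minus PBMC in CD8 T gave 10 genes and cycling 223. The cause of these shifts was not tested.

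Leaving out 1 library gave 6 to 28 genes and 0 to 1 members for CD8 T minus CD4 T (6 and 0 without liver PC), 154 to 384 and 3 to 4 for NK minus CD8 T (154 without liver PBMC, 208 without heart PBMC), 1457 to 2513 and 6 to 6 for CD8 T minus Csf1r+, 253 to 1017 and 1 to 2 for CD4 T minus Csf1r+ (253 and 1 without liver PC), 300 to 667 and 5 to 6 for NK minus Csf1r+ (300 without liver PC), 0 to 23 and 0 to 0 for TIL minus PBMC in CD8 T (23 without kidney TIL), 0 to 148 and 0 to 0 in NK (148 without kidney PBMC), 0 to 9 and 0 to 0 for the interaction (9 without liver PBMC), and 144 to 604 and 0 to 1 for cycling (144 without liver PC). In NK cells and the interaction, leaving out a TIL library left 1, which is assumed to vary like the PBMC libraries.

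Sign changes concerned members that had not passed, with 1 value past the threshold after the change, that of Gzma in CD4 T minus Csf1r+ under stricter rules. On the log2 scale, Gzma in CD4 T minus Csf1r+ ranged from -0.48 to 0.11 with 1 library left out and became 0.82 under stricter rules and 0.043 with cells counted in each class. Gzmk in NK minus Csf1r+ became -6.91 under stricter rules. In CD8 T, TIL minus PBMC, leaving out 1 library gave -0.34 to 0.73 for Gzmb, -0.54 to 0.20 for Gzmk and -0.23 to 0.41 for Serpinb6b. Without both TIL libraries labelled heart and liver, Gzmb became -2.21, Serpinb6b -0.89 and Serpinb9 -0.30, and with organ as a block Gzmb became -0.13. In NK cells, leaving out 1 library gave -1.21 to 0.11 for Gzma, -0.67 to 0.32 for Prf1 and -1.31 to 0.036 for Serpinb6b, all positive only without kidney PBMC. Organ as a block turned Prf1 to 0.28 and Serpinb9 to 0.20, and PC joined with TIL turned Serpinb6b to 0.17 and Serpinb9 to 0.27. In the interaction, leaving out 1 library gave -0.47 to 0.54 for Gzma and -0.60 to 0.44 for Gzmb, and Gzma became 0.025 with RLE size factors and 0.059 with DESeq2. Gzmb in cycling cells ranged from -0.058 to 0.043 with 1 library left out and became -0.087 with no filter, -0.12 without both TIL libraries, -0.055 at 1000 UMIs and -0.024 under stricter rules.

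Too few cells were left at 1000 UMIs and under stricter rules for TIL minus PBMC in NK, in CD4 T and for the interaction, without both TIL libraries labelled heart and liver for the same, and, in CD4 T, with any library left out or organ as a block. Unthinned shares were higher in 92 of 156 values by more than counting error, and stricter rules moved 60 of 102 CPM values by as much (22 up, 38 down), leaving out cells of 2 classes 42 of 156 (13 up, 29 down) and at least 1000 UMIs 32 of 114 (17 up, 15 down). Thinning cells over 1000 UMIs to 1000 moved 111 of 156 shares. Depth limits the rare members: NK cells held 3 to 78 UMIs of Prf1, Serpinb9 and Serpinb6b per library.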

Other observations

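B cells and neutrophils, which are not known as main sources of granzymes, were outside the comparisons. B cells had at least 2 UMIs of Cd79a, Cd79b and Ms4a1, and neutrophils at least 1 UMI of Csf3r, with no Csf1r UMI, and neither had a UMI of Cd3d, Cd3e or Cd3g. In heart PBMC, 40.6% of 251 B cells and 43.0% of 2830 neutrophils had a Gzma UMI, against 47.8% of Csf1r+ cells. In liver PBMC the shares were 38.3% of 478 B cells and 40.6% of 2624 neutrophils, against 37.3% of Csf1r+ cells. After thinning to 500 UMIs they were 25.5% and 30.9%, against 30.4%, in the first library, and 27.2% and 31.4%, against 26.2%, in the second. Neutrophils held 24.5% and 32.6% of all Gzma UMIs in these 2 libraries, more than CD8 T cells, with 17.0% and 10.4%, or NK cells, with 8.61% and 21.2%. Neutrophils were far more numerous, and each held less. In heart PBMC 2830 neutrophils held 1866 Gzma UMIs and 329 CD8 T cells held 1290. In liver PBMC 2624 neutrophils held 1950 and 183 CD8 T cells held 622.

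Neutrophils held 3.55, 7.56 and 10.1 Gzma UMIs per Gzmb UMI in blood of the heart, liver and kidney series, and 0.59 to 1.46 in 3 graft libraries. Blood values were thus above those of CD8 T cells in the same libraries, which were 0.94, 1.38 and 1.79. The source of these UMIs was not tested.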
